A study of Mus musculus with 6 samples.

Results

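The heat shock proteins and their DnaJ cochaperones were described across the 2 compartments of the embryonic mouse ureteric epithelium. Members were the gene symbols of the HSP70, HSP90, chaperonin, small heat shock protein and DnaJ A, B and C series, together with the transcription factors Hsf1 and Hsf2 and the cochaperone Bag3. The basement membrane gene Hspg2 and pseudogenes were left out. The choice by symbol gave 74 of the 21456 gene symbols with values, and it used no expression value. A further 3 symbols of the same series, Dnajc5b, Dnajc5g and Hspb3, were listed with question marks in all 6 libraries and have no values here.

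The ureteric epithelium is the branching tree of the fetal kidney, whose growing ends are called tips and whose older trunk is called the stalk. Both groups came from developing kidneys of CFW mice at stage E16.5 (embryonic day) that carried the reporters Wnt11RFP and Hoxb7GFP. Tip cells were Wnt11RFP+;Hoxb7GFP+ and stalk cells were Wnt11RFP-;Hoxb7GFP+, with 3 mRNA libraries in each group. The tip and stalk labels thus rest on the activity of the reporter named for Wnt11, and how the animals were pooled was not given in the sources used here. No label ties a library to an animal or litter of its own, so p-values describe the variation among these 6 libraries, and that variation may be technical.

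Heat shock proteins are molecular chaperones, which hold unfolded proteins and help them fold. HSP70 proteins bind and release their clients in a cycle driven by ATP, J proteins (the DnaJ cochaperones) deliver clients and trigger that cycle, and exchange factors such as the HSP110 proteins and BAG proteins end it. Some members are made at all times, some are switched on by heat or by tissue stress through the factor HSF1, and others serve the endoplasmic reticulum, where their genes respond to unfolded protein through ATF6 and XBP1.

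Levels were RPKM, reads scaled by transcript length and by the mapped reads of each library, as the authors deposited them, and they are given as mean ± SD (n = 3 libraries) or library by library. The sequencing depth behind them was unknown. All 7 ureteric epithelial markers examined, among them Hoxb7, Ret and Epcam, reached at least 1 RPKM in every library. Wnt11 RNA was at 930, 423 and 726 RPKM in the tip libraries and at 1.92, 8.67 and 24.5 RPKM in the stalk libraries. In a principal component analysis the second component, with 9.21% of the variance, placed tip replicate 2 at -20.5 and stalk replicate 1 at -25.0, and the other 4 libraries between 7.72 and 18.5. Some of the results that rest on these libraries are therefore also given without both of them.

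The members together made up 0.937%, 0.986% and 0.947% of all RPKM in the tip libraries and 0.895%, 0.858% and 0.829% in the stalk libraries. Hsp90ab1, Hspa5, Hsp90b1, Hspa8 and Hspa9 each averaged at least 100 RPKM in the whole set of libraries. A mean of at least 10 RPKM was reached by 39 members.

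Of the 74 members, 62 averaged at least 1 RPKM and were tested with limma on log2(RPKM + 1). Fold changes are given on that log2 scale as tip minus stalk, and the scale understates the change of low genes. At a Benjamini-Hochberg adjusted p under 0.05, 31 of the 62 were called, against 48.6% of all 12532 genes tested. Of these, 17 were higher in tip (26.1% of all genes) and 14 were higher in stalk (22.5% of all genes). With all 6 libraries the share called among the members was thus near that of the whole table, and the direction was mixed. Without tip replicate 3, 20 members were called, 10 of them higher in tip. The calls over all genes fell as well, from 3274 higher in tip and 2815 higher in stalk to 2541 and 2438. In the fit with all libraries, the further shares were as follows. A called change of at least 1 log2 unit was seen for 8 members, against 17.1% of all genes. The libraries of the groups did not overlap for 38 of the 62 members, against 57.8% of all genes. The tip libraries lay above the stalk libraries in 19 of them (31.3% of all genes) and the stalk libraries above the tip libraries in the other 19 (26.5% of all genes). The median log2 difference was -0.05 over the members and 0.05 over all genes, and the median absolute difference was 0.42 and 0.39.

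The 12 members that were not tested had means of at most 0.909 RPKM. The nearest of them to the limit were Dnaja4 at 0.909, Hspa1l at 0.859 and Hspa12b at 0.807 RPKM, and the nearest tested members were Dnajc19 at 1.06, Hspbap1 at 1.20 and Dnajc28 at 1.26 RPKM. Among the untested members, the stalk libraries of Hspa12b, Hspb2 and Hspb7 lay above their tip libraries, and the tip libraries of Hspb9 lay above its stalk libraries.

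**Figure D1:**
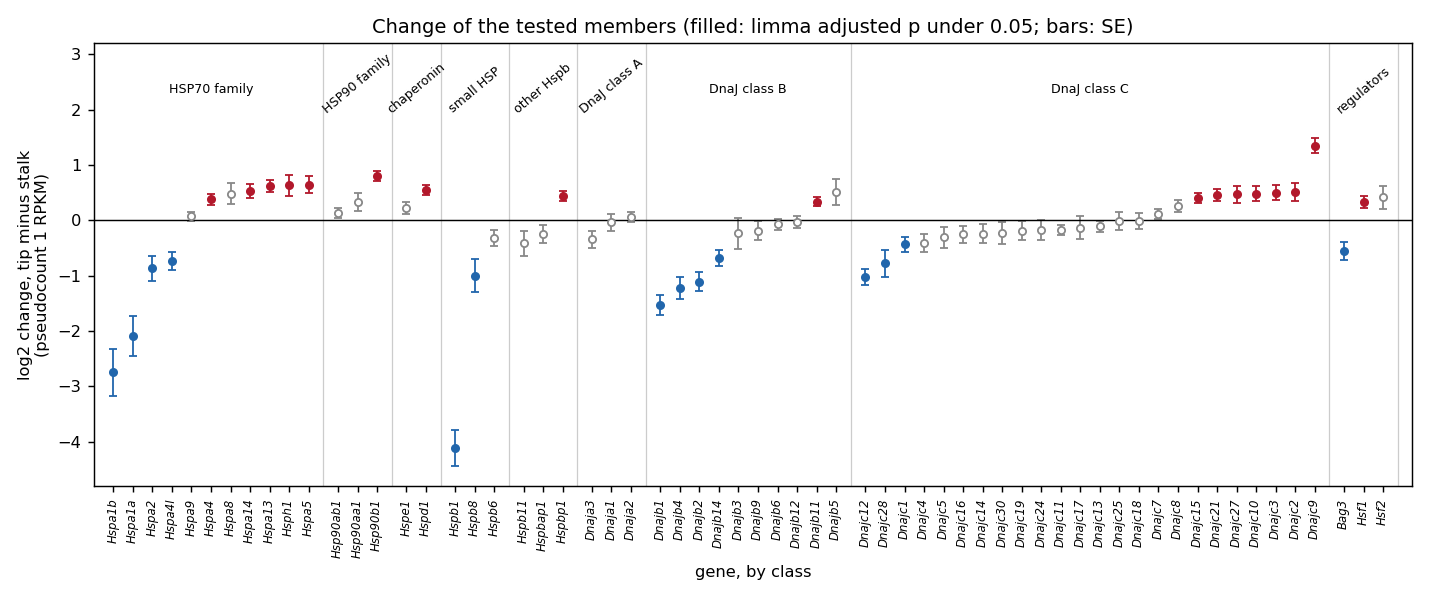
Log2 difference between tip and stalk (vertical axis, tip minus stalk of log2(RPKM + 1), bars ± SE, 3 libraries per group) of the 62 tested members, grouped by class on the horizontal axis. Filled points are the 31 called members, 17 above and 14 below 0, and the lowest point is Hspb1 at -4.12.

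The largest differences lay among the heat-inducible members and pointed to the stalk. Of the 11 members taken as textbook targets of HSF1, all tested, 5 were higher in stalk (Hspb1, Hspa1b, Hspa1a, Dnajb1 and Bag3), 2 were higher in tip (Hsph1 and Hspd1) and 4 did not pass the test (Hspa8, Hsp90aa1, Hspe1 and Dnaja1). The inducible genes therefore did not move in 1 direction, and their median log2 difference was -0.04 against 0.05 over all genes. Of all genes tested, 22.5% were higher in stalk and 26.1% in tip. Without tip replicate 2 and stalk replicate 1, the counts were again 5 higher in stalk and 2 higher in tip, with Hsp90aa1 called in tip and Hsph1 not called.

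Hspb1 (ENSMUSG00000004951, chromosome 5, 135887919 to 135889563, mm10, plus strand) encodes HSP25, a small heat shock protein that holds unfolding proteins and binds to the actin cytoskeleton. It was at 2.14, 8.20 and 4.68 RPKM in the tip libraries and at 103, 93.7 and 86.7 RPKM in the stalk libraries. Every stalk library lay above 80 RPKM and every tip library below 10 RPKM. The mean was 5.0 ± 3.04 RPKM in tip and 94.3 ± 8.04 RPKM in stalk, which made a ratio of 18.9, and the log2 difference was -4.12 ± 0.33 (SE, adjusted p = 3.45e-05). The ratio was between 14.6 and 27.7 when any 1 library was left out, and it was highest without tip replicate 2. The table also lists Hsp25-ps1, a pseudogene of Hspb1, at 0.770, 3.66 and 2.15 RPKM in tip and at 50.8, 45.1 and 39.5 RPKM in stalk. Reads of the gene and its copy may have been split between them, so the level of Hspb1 is uncertain, and both entries were higher in every stalk library.

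Hspa1a and Hspa1b encode the stress-inducible HSP70 and lie beside each other on chromosome 17 (34969190 to 34972156 and 34956436 to 34959238, mm10, both on the minus strand). They are close copies, so that reads may be shared between them, and their sum is given first. It was 12.1, 44.9 and 13.4 RPKM in the tip libraries and 140, 127 and 119 RPKM in the stalk libraries. The groups did not overlap, and tip replicate 2 stood above the other tip libraries. The stalk mean of 128 ± 10.5 RPKM was 5.48 times the tip mean of 23.4 ± 18.6 RPKM, and without tip replicate 2 the ratio was 10.1. Set against Hspa8, the constitutive HSP70 of the cytosol, the inducible sum was 7.72%, 20.7% and 8.61% of its level in tip and 106%, 84.5% and 122% in stalk. In the stalk libraries the inducible genes thus reached about the level of the constitutive gene.

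Taken separately, Hspa1b was at 8.88, 33.5 and 9.65 RPKM in tip and at 116, 101 and 91.0 RPKM in stalk, with a log2 difference of -2.75 ± 0.42 (adjusted p = 0.000953). Hspa1a was at 3.23, 11.4 and 3.71 RPKM in tip and at 23.6, 25.7 and 27.8 RPKM in stalk, with a log2 difference of -2.09 ± 0.36 (adjusted p = 0.00179). For both genes tip replicate 2 was the highest tip library. Without tip replicate 2 the log2 differences were -3.33 for Hspa1b and -2.58 for Hspa1a, and their ratios of stalk to tip went from 5.93 to 11.1 and from 4.21 to 7.41.

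Dnajb1, the J protein HSP40 that works with cytosolic HSP70, was at 30.0, 41.4 and 35.8 RPKM in tip and at 79.4, 118 and 119 RPKM in stalk. All stalk libraries lay above all tip libraries, by a ratio of means of 2.95 and a log2 difference of -1.52 ± 0.18 (adjusted p = 0.000238). Bag3, an HSP70 exchange factor that links HSP70 to small heat shock proteins and to autophagy, was at 4.92, 6.63 and 5.68 RPKM in tip and at 10.1, 9.33 and 7.38 RPKM in stalk. Its groups did not overlap, and the log2 difference was -0.56 ± 0.16 (adjusted p = 0.0180). The call of Bag3 was lost when tip replicate 1, tip replicate 3, stalk replicate 1 or stalk replicate 2 was left out (adjusted p between 0.0518 and 0.0710). Without both tip replicate 2 and stalk replicate 1, the log2 differences were -4.43 for Hspb1, -3.24 for Hspa1b, -2.63 for Hspa1a, -1.82 for Dnajb1 and -0.56 for Bag3.

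The inducible members that were higher in tip changed less. Hsph1, an HSP110 protein that resolves aggregates with HSP70, was at 22.1, 27.9 and 33.5 RPKM in tip and at 17.6, 21.5 and 13.7 RPKM in stalk. Its lowest tip library lay just above its highest stalk library, and the log2 difference was 0.63 ± 0.19 (adjusted p = 0.0242). The call was lost without tip replicate 2, tip replicate 3 or stalk replicate 3 (adjusted p between 0.0537 and 0.0872), and without both tip replicate 2 and stalk replicate 1 (adjusted p = 0.070). Hspd1, the HSP60 ring of the mitochondrial chaperonin, was at 60.2, 63.8 and 61.3 RPKM in tip and at 42.2, 45.0 and 38.7 RPKM in stalk. Its groups were well apart, with a log2 difference of 0.55 ± 0.09 (adjusted p = 0.00156). Hspe1, the HSP10 lid of that ring, was at 24.2, 27.4 and 30.1 RPKM in tip and at 23.3, 24.3 and 21.5 RPKM in stalk. Its groups overlapped and it did not pass the test (log2 difference 0.23 ± 0.11, adjusted p = 0.121). Hspd1 and Hspe1 lie head to head and overlap in the annotation, and the use of strand in the counting was not given in the sources used here, so their levels may share reads.

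The remaining inducible members gave no call. Hspa8 was at 157, 217 and 155 RPKM in tip and at 131, 150 and 97.1 RPKM in stalk. The tip libraries lay above the stalk libraries, but the log2 difference of 0.49 ± 0.19 missed the threshold (adjusted p = 0.0603). It passed without stalk replicate 2 (adjusted p = 0.0336) and with the highest row for each symbol (0.0348). It also passed with every library scaled to the same total (0.0461). The difference fell to 0.33 without tip replicate 2 (adjusted p = 0.1681) and to 0.37 without both libraries that stood apart (adjusted p = 0.1498). Hsp90aa1, the inducible cytosolic HSP90, was at 70.2, 87.5 and 75.8 RPKM in tip and at 79.0, 56.4 and 52.0 RPKM in stalk. Stalk replicate 1 overlapped the tip libraries, and the log2 difference was 0.33 ± 0.16 (adjusted p = 0.127). It passed the test without stalk replicate 1 (adjusted p = 0.00905) and without both libraries that stood apart (log2 difference 0.42, adjusted p = 0.0111). Dnaja1, a J protein of the cytosol, was at 21.1, 27.0 and 21.3 RPKM in tip and at 29.0, 22.3 and 20.3 RPKM in stalk, with overlapping groups (log2 difference -0.04 ± 0.16, adjusted p = 0.865).

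**Figure D2:**
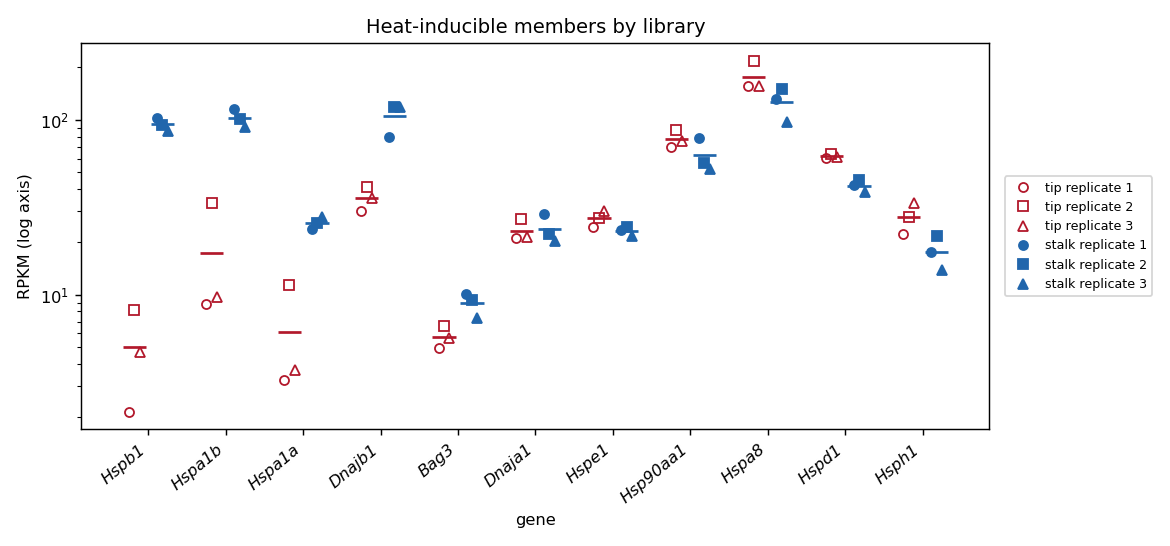
RPKM (vertical log axis) of the 11 heat-inducible members (horizontal axis) in each of the 6 libraries, with open red symbols for tip, filled blue symbols for stalk, a shape for each replicate number and a bar at the mean of 3 libraries. Hspb1, Hspa1b, Hspa1a, Dnajb1 and Bag3 show stalk above tip without overlap, and tip replicate 2 (open square) is the highest tip library in 9 of the 11.

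Tip replicate 2 was the highest of the tip libraries in 9 of the 11 inducible members, against 28.9% of all genes tested. Stalk replicate 1 was the highest of the stalk libraries in 5 of the 11, against 23.7% of all genes tested. Immediate early genes also differed between the groups. Of 16 immediate early genes, which respond within minutes to tissue handling and growth factors, 10 were higher in stalk and 0 in tip (limma, with 0 in tip also at an unadjusted p under 0.05). Over all genes tested, the shares were 22.5% and 26.1%. The summed level of the 16 was 4214 to 5747 RPKM in the tip libraries and 6105 to 9190 RPKM in the stalk libraries. Among the called ones, Fosb differed by -1.66, Atf3 by -1.49 and Btg2 by -1.38 on the log2 scale. The calls of Jun, Junb and Egr2 depended on the setting, with adjusted p of up to 0.142, 0.116 and 0.112 under alternatives. Fos, Jund and Ier2 were not called, but their adjusted p fell to 0.00309, 0.00565 and 0.00334 under alternatives. Atf3, a transcription factor of the stress response, was at 104, 268 and 148 RPKM in tip and at 540, 425 and 408 RPKM in stalk. Among the 16 immediate early genes, tip replicate 2 was the highest tip library in 3, Atf3 being 1 of them, and the lowest in 8. It had the lowest sum of the tip libraries. Stalk replicate 1 was the lowest stalk library in 14 of the 16 and the highest in 1, and its sum of 6105 RPKM was the lowest of the stalk libraries. The part of sorting and tissue handling in the difference of the inducible members was not tested.

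Markers of other cell types also differed between the groups. Of 11 tested endothelial markers, 10 were higher in stalk and 1, Eng, was higher in tip, a call lost without any 1 library other than tip replicate 2 (adjusted p between 0.0650 and 0.178). The sum of the 12 markers was 36.5 to 39.1 RPKM in tip and 80.4 to 128 RPKM in stalk. Cdh5 (-2.22), Plvap (-2.21) and Emcn (-2.20) had the largest log2 differences. None of 3 tested stromal markers was called by limma, and 0 had an unadjusted p under 0.05, while the 6 stromal markers summed to 3.44 to 7.69 RPKM in tip and 3.94 to 7.06 RPKM in stalk. The 4 immune markers summed to 12.7 to 15.1 RPKM in tip and 11.7 to 19.3 RPKM in stalk, but of 3 tested Laptm5 was higher in stalk (log2 difference -2.39, adjusted p = 0.000206) and Cd68 was higher in tip (0.69, adjusted p = 0.00375). The 3 nephron progenitor markers summed to 2.58 to 3.15 RPKM in tip and 0.471 to 1.28 RPKM in stalk, and Cited1, the only tested one, was higher in tip (0.82, adjusted p = 0.00727). The 2 erythroid markers with values summed to 12.3 to 71.9 RPKM in tip and 8.79 to 83.7 RPKM in stalk. No marker of these lists was under 0.05 RPKM in all 6 libraries. The part of other cells in the members' differences was not tested, and in such bulk libraries fewer cells of a type and less RNA per cell cannot be told apart.

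Promoter sequences from RefSeq (GRCm38.p6, 250 bases before to 50 bases after each start) were found for 60 of the 74 members. Members without one, which were not searched, included Hspa8, Hsp90aa1, Hsp90ab1, Hspa9, Hspa13 and Hsf1. They were searched on both strands for the heat shock element, the inverted GAA repeat that HSF1 binds. The form of 2 units was GAANNTTC or TTCNNGAA. The form of 3 units extends the first by NNGAA or the second by NNTTC, so that every 3-unit match also holds a 2-unit match. The 3-unit form lay in 0.603% of all 32851 promoters. Counted by gene, in any of its promoters, it lay in 0.662% of 27025 genes and in 4 of the 60 members, Dnajb6, Hspd1, Hspe1 and Hsph1. The 2-unit form lay in 15.1% of all promoters, and by gene in 17% of genes and in 15 of the 60 members. The windows below show the matches in capitals for the 3 most changed inducible members (2 units) and for Hspd1 and Dnajb6 (3 units), and were chosen after the matches were seen.
Hspb1, chr5:135887789-135887848, plus strand: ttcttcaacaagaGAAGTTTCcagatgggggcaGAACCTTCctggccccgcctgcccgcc
Hspa1a, chr17:34972207-34972286, minus strand: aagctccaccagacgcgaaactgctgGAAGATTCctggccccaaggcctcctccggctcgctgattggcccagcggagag
Hspa1b, chr17:34959289-34959368, minus strand: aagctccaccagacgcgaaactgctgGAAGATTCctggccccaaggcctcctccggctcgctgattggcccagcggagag
Hspd1, chr1:55088056-55088079, minus strand: gccTTCCGGAAGGTTCTAGAAcgg
Dnajb6, chr5:29735847-29735870, plus strand: tccgaGAATCTTCCGGAAcgctag

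Hspb1 held 2 matches, from 117 to 110 and from 97 to 90 bases before its start. Dnajb1, also inducible and higher in stalk, held 0 matches of either form in its windows. Hspa1a and Hspa1b shared 247 of the 250 bases before their starts, including the match from 104 to 97 bases before the start. Hspd1 held 2 overlapping 3-unit matches, from 144 to 132 and from 139 to 127 bases before its start. Between this start of Hspd1 and the start of Hspe1 lay 215 bases, and the same bases were the matches of both genes. RefSeq gives Hspd1 a further start beyond that of Hspe1, whose window held 0 matches. Among all tested genes, the 50 with a 3-unit match held 20 that were higher in tip and 6 that were higher in stalk. The 1206 with a 2-unit match held 308 and 283, beside 26.1% and 22.5% of all genes. Of the 4 members with the 3-unit form, Hspd1 and Hsph1 were higher in tip, and Dnajb6 and Hspe1 were not called. The 2-unit form without a 3-unit match lay in members higher in stalk (Hspb1, Hspa1a, Hspa1b, Dnajb4, Bag3 and Hspb8) and higher in tip (Dnajc10 and Dnajc27). It also lay in Dnaja1 and Hspb6, which were not called, and in Dnaja4, which was not tested. Dnajb6, a J protein that keeps proteins from aggregating, differed by -0.07 ± 0.10 on the log2 scale (adjusted p = 0.603).

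The other small heat shock proteins were low. Hspb8, the partner of Bag3, was at 0.211, 1.31 and 0.716 RPKM in tip and at 3.31, 2.77 and 1.36 RPKM in stalk, where the lowest stalk library lay just above the highest tip library. Its log2 difference of -1.0 ± 0.30 was called (adjusted p = 0.0241), and it was -1.77 with a pseudocount of 0.1. The ratio of means went from 3.33 to 5.35 without tip replicate 2, and the call was lost without tip replicate 1, tip replicate 3, stalk replicate 1 or stalk replicate 2 (adjusted p between 0.0605 and 0.0828). Hspb6, also called HSP20, was at 2.26, 2.19 and 1.91 RPKM in tip and at 2.60, 3.02 and 3.05 RPKM in stalk. Its groups did not overlap, but it missed the threshold (log2 difference -0.32 ± 0.14, adjusted p = 0.0982). Of the related crystallins, Cryab, a small heat shock protein by structure, was the only tested gene, with a log2 difference of -2.40 ± 0.18 (adjusted p = 2.56e-05), from 0.222, 0.678 and 0.483 RPKM in tip to 5.67, 7.02 and 7.40 RPKM in stalk.

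Listed members of the endoplasmic reticulum were mostly higher in tip. The list is not complete. It leaves out J proteins of its membrane, among them Dnajb14, which was higher in stalk (log2 difference -0.68), and Dnajb12, which was not called (-0.03). Also outside the list were Dnajc14 (-0.24), Dnajc16 (-0.25), Dnajc18 (-0.0080) and Dnajc25 (-0.010), none of them called. Of the 8 listed, all tested, 6 were higher in tip (Hsp90b1, Hspa5, Hspa13, Dnajc3, Dnajc10 and Dnajb11), 1 was higher in stalk (Dnajc1) and 1 did not pass (Dnajb9). Over all genes tested, 26.1% were higher in tip and 22.5% in stalk. The median log2 difference of the 8 was 0.49, and their summed level was 924 to 1083 RPKM in the tip libraries and 596 to 739 RPKM in the stalk libraries. Without tip replicate 3, 3 of the 8 were called in tip, the calls of Dnajb11, Dnajc3 and Dnajc10 being lost. Without both tip replicate 2 and stalk replicate 1, 5 were called in tip.

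Hsp90b1 (chromosome 10, 86690209 to 86705509, mm10, minus strand) encodes GRP94, the HSP90 of the endoplasmic reticulum. It was at 305, 312 and 339 RPKM in tip and at 185, 192 and 172 RPKM in stalk, so that every tip library lay above 300 RPKM and every stalk library below 200 RPKM. The log2 difference was 0.80 ± 0.09 (adjusted p = 0.000215). Hspa5 (chromosome 2, 34771970 to 34777547, mm10, plus strand) encodes BiP, the HSP70 of that compartment. It was at 457, 596 and 558 RPKM in tip and at 405, 351 and 278 RPKM in stalk, without overlap. The log2 difference was 0.65 ± 0.16 (adjusted p = 0.0105), and without tip replicate 2 and stalk replicate 1 it was 0.69, with 0.82 for Hsp90b1.

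Hspa13, an HSP70-like protein of microsomes, was at 14.3, 15.3 and 14.1 RPKM in tip and at 8.45, 9.34 and 9.71 RPKM in stalk, with groups well apart (log2 difference 0.61 ± 0.11, adjusted p = 0.00187). Dnajb11, the luminal J protein ERdj3 that serves BiP, was at 52.6, 58.4 and 58.2 RPKM in tip and at 44.9, 43.4 and 44.8 RPKM in stalk. Its groups did not overlap, and the log2 difference was 0.34 ± 0.09 (adjusted p = 0.0127), with an adjusted p of 0.0555 without tip replicate 3. Dnajc3, the cochaperone p58IPK, differed by 0.50 ± 0.13 on the log2 scale (adjusted p = 0.0138), with an adjusted p of 0.0582 without tip replicate 3 and of 0.0572 without both libraries that stood apart. Dnajc10, the disulfide reductase ERdj5, differed by 0.48 ± 0.14 (adjusted p = 0.0210), and its call was lost without tip replicate 1, tip replicate 3 or stalk replicate 1 (adjusted p between 0.0523 and 0.0812). The groups of both genes did not overlap.

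Dnajc1, a J protein of the endoplasmic reticulum membrane, went the other way, with a log2 difference of -0.43 ± 0.14 (adjusted p = 0.0337). That call was lost when any library other than stalk replicate 1 was left out (adjusted p between 0.0547 and 0.108). When the highest row alone stood for the gene, its log2 difference was 0.15 (adjusted p = 0.476), so its direction depends on how the rows of the table are combined. Dnajb9, the J protein ERdj4, was at 33.7, 47.4 and 37.4 RPKM in tip and at 55.3, 36.1 and 44.3 RPKM in stalk. Its groups overlapped (log2 difference -0.18 ± 0.18, adjusted p = 0.417), and tip replicate 2 and stalk replicate 1 were the highest of their groups.

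**Figure D3:**
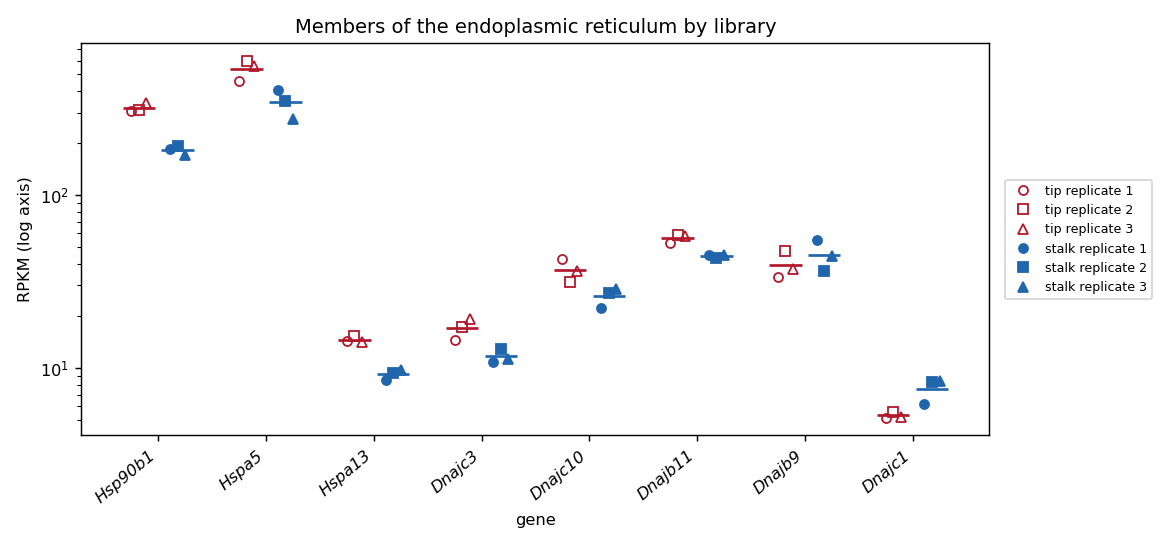
RPKM (vertical log axis) of the 8 listed members of the endoplasmic reticulum (horizontal axis) in each of the 6 libraries. Open red symbols stand for tip and filled blue symbols for stalk, with a shape for each replicate number and a bar at the mean of 3 libraries. The 6 genes from Hsp90b1 to Dnajb11 show every tip library above every stalk library, Dnajb9 overlaps, and Dnajc1 shows the reverse.

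The promoters were also searched on both strands for the ER stress element (CCAAT and CCACG with 9 bases of any kind between them), which ATF6 binds together with the CCAAT factor NF-Y. The element lay in 0.119% of all promoters. By gene it lay in 0.137% of genes and in 3 of the 60 members, Hspa5, Hsp90b1 and Dnajc3, all of them called higher in tip. The windows below hold the matches in capitals, and Hsp90b1 has 2, the second of them on the other strand. The windows were chosen after the matches were seen.
Hspa5, chr2:34772020-34772049, plus strand: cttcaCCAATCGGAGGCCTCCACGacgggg
Hsp90b1, chr10:86705525-86705664, minus strand: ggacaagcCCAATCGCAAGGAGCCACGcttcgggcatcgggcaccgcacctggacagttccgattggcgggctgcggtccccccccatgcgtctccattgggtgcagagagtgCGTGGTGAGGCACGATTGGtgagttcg
Dnajc3, chr14:118937812-118937861, plus strand: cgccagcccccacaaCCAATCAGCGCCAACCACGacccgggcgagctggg

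The match lay from 65 to 47 bases before the RefSeq start of Hspa5, from 105 to 87 bases before that of Dnajc3, and from 212 to 194 and from 107 to 89 bases before that of Hsp90b1. The pentamer CCAAT alone, which the element contains, lay in 37.4% of all promoters. By gene it lay in 41.1% of genes and in 25 of the 60 members. Of 16 tested genes with the whole element, the 3 members included, 11 were higher in tip and 0 in stalk by limma (0 in stalk also at an unadjusted p under 0.05), with a median log2 difference of 0.54. Among the 13 that are no members, 8 were higher in tip and 0 in stalk. Of 3802 tested genes with a CCAAT box, 1044 were higher in tip and 879 in stalk, beside 26.1% and 22.5% of all genes. A match is a description of these letters, and binding was not measured.

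A list of further genes of folding and stress response in the endoplasmic reticulum was also tested. Of 14 tested with limma, 8 were higher in tip and 0 in stalk (2 in stalk at an unadjusted p under 0.05, and 1 called there with either other scaling of the libraries). The shares over all genes were 26.1% and 22.5%. Sdf2l1, a partner of BiP and ERdj3, was at 34.1, 32.0 and 46.3 RPKM in tip and at 11.2, 14.5 and 13.4 RPKM in stalk. Its log2 difference was 1.44 ± 0.16 (adjusted p = 0.000170). The disulfide isomerase Pdia4 differed by 1.02 ± 0.11 (adjusted p = 0.000175) and the secreted factor Manf by 0.88 ± 0.15 (adjusted p = 0.00154). The 6 genes of the list that were not called were P4hb (log2 difference -0.0037), Herpud1 (-0.08), Xbp1 (-0.48), Ddit3 (-0.82), Atf4 (-0.07) and Atf6 (-0.30), with adjusted p between 0.0553 and 0.975. Herpud1 was at 17.0, 69.4 and 20.6 RPKM in tip and at 56.2, 20.8 and 24.9 RPKM in stalk. Ddit3, which encodes CHOP, was at 24.1, 64.8 and 22.3 RPKM in tip and at 86.8, 43.9 and 52.7 RPKM in stalk. Both were highest in tip replicate 2 and in stalk replicate 1 within their groups, the libraries that stood apart on the second component, and were named after their values were seen. Over the alternative settings of the limma fit, the adjusted p of Ddit3 ran from 0.000556 to 0.337 and that of Xbp1 from 0.0359 to 0.169. These 2 genes thus passed the threshold in some settings, and Herpud1 in none (lowest adjusted p = 0.152).

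Among the HSP90 genes of the cytosol, Hsp90ab1, the constitutive form, was the most abundant member, at 1155, 1126 and 1130 RPKM in tip and at 994, 1068 and 1037 RPKM in stalk. The tip libraries lay above the stalk libraries by a ratio of means of 1.10, and the log2 difference of 0.14 ± 0.09 was not called (adjusted p = 0.253). Its cochaperones were tested apart from it. Of 12, 6 were higher in tip and 1 was higher in stalk (2 with median-ratio scaling), beside 26.1% and 22.5% of all genes. The count in tip was 4 without tip replicate 3, and 5 without tip replicate 1 or stalk replicate 2. With the highest row for each symbol it was 7. Fkbp4, a prolyl isomerase that rides on HSP90, was at 256, 221 and 263 RPKM in tip and at 132, 155 and 148 RPKM in stalk (log2 difference 0.76 ± 0.11, adjusted p = 0.000578). Stip1, the adaptor HOP between HSP70 and HSP90, differed by 0.64 ± 0.10 (adjusted p = 0.00109). Unc45a, a myosin chaperone, differed by -0.68 ± 0.09 (adjusted p = 0.000557).

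The rest of the HSP70 family was split as well. Of 11 tested members of the family, 5 were higher in tip (Hspa5, Hsph1, Hspa13, Hspa14 and Hspa4) and 4 in stalk (Hspa1b, Hspa1a, Hspa2 and Hspa4l). Of all genes, 26.1% and 22.5% were called in these directions. Hspa2, known for its role in sperm cells, was at 1.84, 4.52 and 2.84 RPKM in tip and at 6.58, 5.98 and 5.94 RPKM in stalk, without overlap (log2 difference -0.87 ± 0.23, adjusted p = 0.0138, and 0.0554 with no filter on low genes). Hspa4l, an HSP110 protein, was at 1.71, 1.79 and 1.86 RPKM in tip and at 3.37, 4.56 and 3.11 RPKM in stalk, also without overlap (log2 difference -0.74 ± 0.16, adjusted p = 0.00606). Its relative Hspa4, at 60.2 to 67.0 RPKM in tip and 45.8 to 53.4 RPKM in stalk, differed the other way, by 0.38 ± 0.10 (adjusted p = 0.0123, and 0.0548 without tip replicate 1). The 3 HSP110 genes therefore did not change together, Hsph1 and Hspa4 being higher in tip and Hspa4l in stalk. Hspa9, mortalin, the HSP70 of mitochondria, was at 99.6 to 110 RPKM in tip and at 97.0 to 100 RPKM in stalk and was not called (log2 difference 0.08 ± 0.08, adjusted p = 0.483).

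Of the exchange factors, ligases and other J proteins outside the rule, 14 were tested and 2 were higher in each group, beside 26.1% (tip) and 22.5% (stalk) of all genes. Bag2 differed by -0.79 ± 0.12 (adjusted p = 0.000940), Bag4 by 0.60 ± 0.17 (adjusted p = 0.0176, and 0.0642 to 0.0687 without tip replicate 1 or tip replicate 3) and Hyou1, the HSP110 protein of the endoplasmic reticulum, by 0.56 ± 0.14 (adjusted p = 0.00971). Hspbp1, an exchange factor that the rule takes for its symbol, was at 32.8, 34.1 and 34.7 RPKM in tip and at 24.5, 23.7 and 25.7 RPKM in stalk, with groups well apart (log2 difference 0.44 ± 0.09, adjusted p = 0.00378). Hspb11, a subunit of the intraflagellar transport complex and no chaperone, was at 5.76, 8.45 and 8.19 RPKM in tip and at 7.96, 14.2 and 9.25 RPKM in stalk. Its groups overlapped (log2 difference -0.42 ± 0.22, adjusted p = 0.149), and without both libraries that stood apart it was called (log2 difference -0.67, adjusted p = 0.0488).

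The listed mitochondrial members mostly changed little. The list may not hold every mitochondrial J protein, and members outside it were not counted here. Of 8 tested, 2 were higher in tip (Hspd1 and Dnajc15) and 0 in stalk by limma, with 0 in stalk also at an unadjusted p under 0.05. Over all genes the shares were 26.1% and 22.5%. The median log2 difference of the 8 was -0.05. Dnaja3, a mitochondrial J protein, was higher in every stalk library than in any tip library and missed the threshold (log2 difference -0.34 ± 0.16, adjusted p = 0.108), but passed it with the highest row for each symbol (-0.42, adjusted p = 0.0358). Dnajc15, a J protein of the mitochondrial import motor, was at 27.7 to 29.8 RPKM in tip and at 20.7 to 23.1 RPKM in stalk (log2 difference 0.40 ± 0.09, adjusted p = 0.00775). Dnajc19, of the same motor, was near 1 RPKM in every library (log2 difference -0.18 ± 0.17, adjusted p = 0.411), while its pseudogene Dnajc19-ps was listed at 9.37 to 21.6 RPKM, so that its level is uncertain. Of 7 tested genes of mitochondrial folding and proteolysis outside the rule, 1 was higher in tip (the protease Lonp1, 0.28 ± 0.09) and 1 in stalk (the protease subunit Afg3l2, -0.43 ± 0.13). The call of Lonp1 was lost without tip replicate 1, tip replicate 3, stalk replicate 1 or stalk replicate 2 (adjusted p between 0.0675 and 0.117), and that of Afg3l2 without tip replicate 1, tip replicate 2, stalk replicate 2 or stalk replicate 3 (adjusted p between 0.0586 and 0.0859).

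The tested genes of the cytosolic ring chaperonin TRiC, which folds actin and tubulin, were higher in tip. Those of prefoldin, which feeds it, were mixed, and both were counted as 1 list. Of 13 tested with limma, 10 were higher in tip and 0 in stalk (1 in stalk at an unadjusted p under 0.05, and 9 and 1 called with median-ratio scaling), among them Cct6a (log2 difference 0.82 ± 0.09, adjusted p = 0.000212), Cct5 (0.53 ± 0.08, adjusted p = 0.000832) and Cct8 (0.52 ± 0.09, adjusted p = 0.00164). Cct6a was at 99.5, 92.4 and 94.6 RPKM in tip and at 48.6, 56.8 and 55.7 RPKM in stalk. The 3 genes of the list that were not called were all of prefoldin. They were Pfdn1 (log2 difference 0.24, adjusted p = 0.144), Pfdn2 (0.02, adjusted p = 0.934) and Pfdn5 (-0.26, adjusted p = 0.083). The prefoldin genes Pfdn4 (0.41) and Vbp1 (0.27) were called higher in tip. Over all 61 tested genes of the pathway outside the rule, 27 were higher in tip and 5 in stalk, beside 26.1% and 22.5% of all genes. Their median log2 difference was 0.22 against 0.05 over all genes.

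The DnaJ cochaperones numbered 37 tested genes, of which 8 were higher in tip and 7 in stalk. Class A gave 0 calls by limma among 3 tested genes (0 at an unadjusted p under 0.05), and class B gave 1 in tip and 4 in stalk among 10. Class C gave 7 in tip and 3 in stalk among 24, beside 26.1% and 22.5% of all genes. Those counts were 3 and 1 without tip replicate 3, 4 and 1 without tip replicate 1, 4 and 4 without stalk replicate 1, and 6 and 1 without stalk replicate 2 or stalk replicate 3. The summed level of class B was 180 to 230 RPKM in the tip libraries and 301 to 320 RPKM in the stalk libraries, and that of class C was 357 to 386 RPKM and 317 to 337 RPKM. Much of the difference between the groups in these sums lay in a few genes, chiefly Dnajb1 and Dnajb4 in class B and Dnajc9 in class C. The median log2 difference over the genes was -0.21 in class B and -0.12 in class C, so that the classes did not differ in the sign of their medians.

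Dnaja2, the most abundant class A gene, was at 50.8, 49.1 and 47.6 RPKM in tip and at 49.5, 49.0 and 43.3 RPKM in stalk, with overlapping groups (log2 difference 0.06 ± 0.09, adjusted p = 0.632). In class B, Dnajb4, a cytosolic J protein close to Dnajb1, was at 17.5, 31.9 and 20.2 RPKM in tip and at 59.7, 48.8 and 53.2 RPKM in stalk. Tip replicate 2 was again the highest tip library, and the groups did not overlap (log2 difference -1.22 ± 0.20, adjusted p = 0.00144). Dnajb2, a J protein with ubiquitin-binding motifs, was at 4.90, 7.13 and 7.16 RPKM in tip and at 17.9, 14.2 and 12.6 RPKM in stalk, also without overlap (log2 difference -1.11 ± 0.18, adjusted p = 0.00122). Dnajb14, of the endoplasmic reticulum membrane, was at 1.82, 1.80 and 2.23 RPKM in tip and at 3.34, 3.61 and 4.28 RPKM in stalk (log2 difference -0.68 ± 0.15, adjusted p = 0.00605).

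In class C the largest change was that of Dnajc9 (chromosome 14, 20384638 to 20388910, mm10, minus strand), a cochaperone of histones H3 and H4. It was at 47.8, 41.2 and 46.2 RPKM in tip and at 14.2, 18.0 and 19.0 RPKM in stalk. The lowest tip library lay far above the highest stalk library, with a ratio of means of 2.63 and a log2 difference of 1.35 ± 0.13 (adjusted p = 7.55e-05). Dnajc9 was the only member with a called rise of at least 1 log2 unit in tip. Dnajc12, a cytosolic J protein that serves the aromatic amino acid hydroxylases, was at 3.07, 2.62 and 3.64 RPKM in tip and at 6.76, 8.33 and 6.89 RPKM in stalk, without overlap (log2 difference -1.02 ± 0.15, adjusted p = 0.000752). Dnajc28 was at 0.625, 0.535 and 0.722 RPKM in tip and at 1.02, 2.92 and 1.71 RPKM in stalk (log2 difference -0.77 ± 0.25, adjusted p = 0.0303). Its call was lost without any 1 of the tip libraries or stalk replicate 3 (adjusted p between 0.0646 and 0.0775).

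Dnajc9 belongs to the members of the nucleus, ribosome and splicing machinery. Of these, 4 of 6 tested were higher in tip and 0 in stalk by limma (0 in stalk also at an unadjusted p under 0.05), with a median log2 difference of 0.48. The shares over all genes were 26.1% in tip and 22.5% in stalk. Dnajc2, which binds the ribosome together with the HSP70 protein Hspa14, was at 21.8, 15.4 and 21.2 RPKM in tip and at 11.2, 15.2 and 13.6 RPKM in stalk. Tip replicate 2 lay just above stalk replicate 2, and the log2 difference was 0.51 ± 0.16 (adjusted p = 0.0310). The call was lost without tip replicate 1, tip replicate 3, stalk replicate 1 or stalk replicate 3 (adjusted p between 0.0677 and 0.111). Hspa14 was at 33.0 to 44.5 RPKM in tip and at 25.3 to 28.5 RPKM in stalk (log2 difference 0.53 ± 0.12, adjusted p = 0.00800). Dnajc21, a factor of ribosome assembly, differed by 0.45 ± 0.11 (adjusted p = 0.00858). Dnajc8, a splicing factor, was at 43.0, 35.4 and 42.2 RPKM in tip and at 30.3, 34.0 and 35.6 RPKM in stalk, and its groups overlapped (log2 difference 0.26 ± 0.11, adjusted p = 0.0851, and 0.0374 without tip replicate 2).

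Dnajc7, which binds HSP70 and HSP90 through its repeats, was the most abundant class C gene, at 54.1, 55.9 and 53.6 RPKM in tip and at 54.8, 48.9 and 47.9 RPKM in stalk, and was not called (log2 difference 0.11 ± 0.09, adjusted p = 0.347). The other called class C gene, Dnajc27, a small GTPase with a J domain, differed by 0.47 ± 0.15 (adjusted p = 0.0321). Its call was lost without any 1 library other than stalk replicate 3 (adjusted p between 0.0587 and 0.101).

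**Figure D4:**
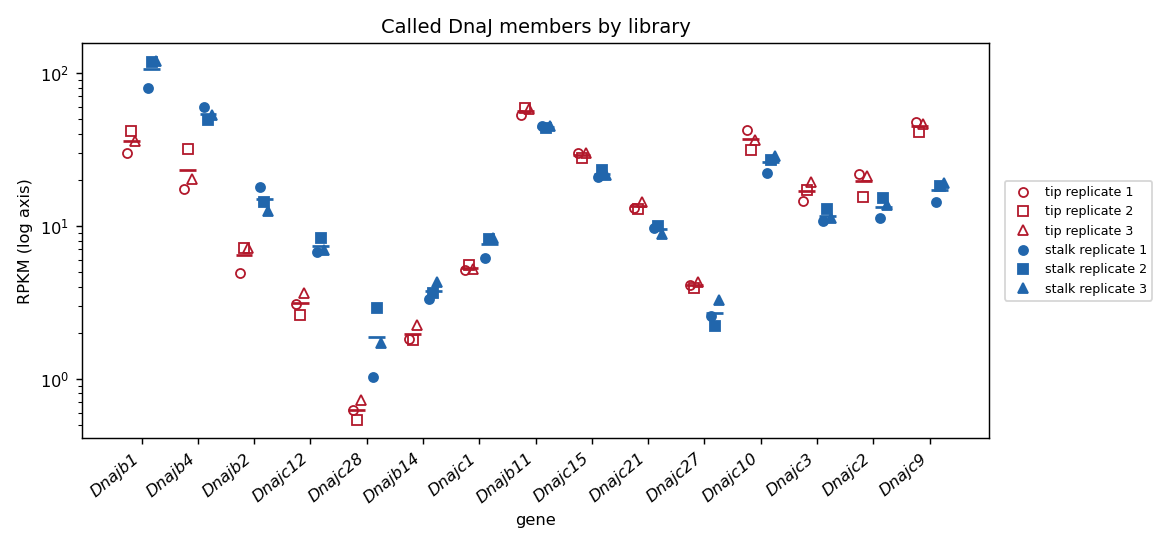
RPKM (vertical log axis) of the 15 called DnaJ cochaperones (horizontal axis) in each of the 6 libraries, with open red symbols for tip, filled blue symbols for stalk, a shape for each replicate number and a bar at the mean of 3 libraries. Stalk lies above tip in 7 genes, led by Dnajb1, and tip above stalk in 8 genes, led by Dnajc9.

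The heat shock factors themselves differed little. Hsf1, the main activator of the heat shock response, was at 23.1, 20.2 and 21.3 RPKM in tip and at 15.3, 18.0 and 17.5 RPKM in stalk, without overlap. The log2 difference of 0.33 ± 0.11 (adjusted p = 0.0328) was toward the tip, opposite to Hspb1, Hspa1a, Hspa1b, Dnajb1 and Bag3. Its call was lost without tip replicate 1, tip replicate 3, stalk replicate 1 or stalk replicate 3 (adjusted p between 0.0589 and 0.122), and without both libraries that stood apart (adjusted p = 0.0522). Hsf2, a related factor active in development, was at 9.73, 6.93 and 8.11 RPKM in tip and at 4.28, 5.91 and 7.97 RPKM in stalk. Its groups overlapped (log2 difference 0.41 ± 0.21, adjusted p = 0.133), and the difference passed only without stalk replicate 3 (adjusted p = 0.0417).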

How the data were processed

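Poly(A) RNA of 3 tip and 3 stalk samples was sequenced from Kapa stranded libraries, per the labels' protocols. The authors deposited RPKM values in 1 table with a column for each sample. Reads were handled with bcl2fastq 2.17, TopHat2 and Partek on mm10, per the submitters' processing notes. Which annotation was used, and whether counting used strand, is not given in the sources used here. Of 93615 rows, 24545 held question marks in every column and were dropped, and RPKM was summed over the other rows of each symbol. Sums ranged from 345123 to 366035 RPKM per library, which is not a depth, and no counting interval was possible.

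All 12532 symbols with a mean of at least 1 RPKM were fitted together with limma 3.58.1 (R 4.3.3) on log2(RPKM + 1), with a mean-variance trend, no block, two-sided tests and Benjamini-Hochberg adjustment over all of them at 0.05. The model was tested on simulated data. Near-identical copies may share reads. Coordinates came from GENCODE annotation of mm10 and promoters from RefSeq (GRCm38.p6).

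The members and lists were chosen with earlier results of these data known. Library values are printed for the 4 most changed called members and the 2 most abundant members of each class, and for all tested inducible, regulator, HSP90 and chaperonin members. From each neighbouring list up to 3 called genes with the largest change are named. Genes outside that rule, such as Hspa13, Dnajb9, Herpud1 and Ddit3, were chosen after their values were seen. Alternatives covered the pseudocount, the filter, scaling, row choice, the trend, a block, the promoter width and each library left out.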

Additional observations from a re-analysis of the deposited data

How the results depend on the processing

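Of the 31 called members, 16 kept their call and direction under all 15 alternatives, 2 (Dnajb14 and Hspa4l) kept them under the 14 that tested them, and 13 lost the call under at least 1. With each library left out in turn, 20 to 29 members were called, 10 to 17 higher in tip and 10 to 13 higher in stalk, the lowest counts of called members and of members higher in tip (20 and 10) being those without tip replicate 3. With a mean of at least 5 RPKM required, 9 members were higher in stalk, since fewer genes were tested. With the replicate block, 26 members were called, Hspa8 among them (adjusted p = 0.0192). Same-numbered tip and stalk samples had deviations correlated at -0.303, -0.335 and 0.093, so the numbers were not taken as pairs. The values that changed sign were small and, except for Dnajc1, belonged to members that were not called, and for each the cause was not tested. With the highest row for each symbol the log2 difference was 0.070 for Dnajb12, 0.12 for Dnajb6, 0.15 for Dnajc1, 0.040 for Dnajc24 and 0.070 for Dnajc25. With median-ratio scaling it was -2.49e-05 for Dnaja2, and with every library scaled to the same total 0.0010 for Dnajc18. With each library left out in turn, the range was -0.15 to 0.11 for Dnaja1, -0.0023 to 0.092 for Dnaja2, -0.11 to 0.032 for Dnajb12, -0.27 to 0.070 for Dnajc17, -0.059 to 0.062 for Dnajc18 and -0.094 to 0.13 for Dnajc25, and without tip replicate 2 and stalk replicate 1 Dnajc25 was at 0.17. Median-ratio scaling moved the counts over all genes from 3274 higher in tip and 2815 higher in stalk to 2984 and 3164. Searching only the bases before the start left the 3-unit heat shock element in 3 members, the 2-unit form in 13 and the ER stress element in 3. The unknown depth limits what can be said of members near or under 1 RPKM.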
